A study of Mus musculus with 9 samples.

Results

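The receptor genes followed here through exposure of primary murine microglia to glioma-conditioned medium (GCM) were Htr2b, Gpr84, Gpr183, Gpr65, Gpr132, Gpr35, Hcar2, S1pr1 and S1pr2. They are 9 of the 17097 genes that the arrays measure through a probe set with a single symbol, and they are covered by 11 of 28898 such probe sets. The probe set with the highest mean over the 9 arrays stood for a gene. Htr2b and Gpr84 were chosen from earlier results of these arrays, for their difference between GCM LN18 and untreated microglia. Their values are therefore described below without a test in any comparison. The other 7 receptors were named with earlier results known as well, and their tests carry that limit.

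Microglia came from the cortex of newborn C57BL/6J mice (P0 to P2), were shaken off a mixed glial monolayer and rested after seeding. Each group holds 3 cultures: untreated control, 6 h in GCM LN18 and 6 h in GCM U87-MG. GCM is medium in which LN18 or U87-MG cells, both established human glioblastoma lines, had been kept beforehand, so each medium stands for 1 cell line in culture. No group carries an engineered allele, and whether the control cultures also received fresh medium is not given in the sources used here. The values are log2 signals of Affymetrix MG-430 PM strip arrays, 1 array per replicate of a group, and a difference of 1 on this scale is 2-fold. Whether a replicate number marks the same culture in all groups is not given in the sources used here. Array medians lay between 3.39 and 3.41, so the arrays were on one scale as deposited. For every probe set the 3 replicate numbers have the same mean over the groups, and the replicate number was therefore a block in the fit. Arrays have no read depth, and their number, 3 per group, limits the precision.

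The cultures were checked against cell type markers. All 13 measured microglia and macrophage markers lay above the median of all probe sets, 3.40, a working line and not a detection call. The summed linear signal of these markers, as log2, ran from 14.21 to 14.28 in control, from 14.39 to 14.41 in GCM LN18 and from 14.34 to 14.41 in GCM U87-MG. Cx3cr1, the fractalkine receptor, and Tmem119 passed the test in GCM LN18 (0.97 and 0.91 on the log2 scale, adjusted p = 0.00827 and 0.0390), and Cx3cr1 also in GCM U87-MG (0.78, adjusted p = 0.0499). Of 8 astrocyte markers 2, Aldh1l1 and Aldoc, were above the line. Gfap, Aqp4, Slc1a2, Slc1a3, Gja1 and Sox9 were below it. The summed astrocyte signal ran from 6.43 to 6.58, from 6.40 to 6.48 and from 6.44 to 6.49. Of the border macrophage markers 3 of 7, Mrc1, Pf4 and Ms4a7, were above the line, and Lyve1, Cd163, Cbr2 and F13a1 were not. Over all 7 the summed signal ran from 11.51 to 11.58 in control and from 11.57 to 11.66 in GCM LN18. In GCM U87-MG it ran from 11.50 to 11.66. Of 7 endothelial markers 3, Kdr, Flt1 and Esam, were above the line, and Pecam1, Cdh5, Cldn5 and Tek were not. The summed endothelial signal ran from 7.36 to 7.57, from 7.59 to 7.73 and from 7.54 to 7.87. All GCM LN18 arrays thus lay above all control arrays. For oligodendrocyte lineage, neurons, fibroblasts and mural cells, T and NK cells, and neutrophils and mast cells, between 1 and 3 markers were above the line. The summed neutrophil and mast cell signal was low. It ran from 5.20 to 5.23 in control, from 5.24 to 5.26 in GCM LN18 and from 5.28 to 5.30 in GCM U87-MG. Neither medium overlapped with control. Of these markers Kit was above the line, and S100a8, S100a9, Cpa3 and Mcpt4 were below it. The part of these markers in the results below was not tested. Fewer cells of a kind and less RNA per cell cannot be told apart on these arrays.

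All 9 genes encode receptors with the membrane-spanning fold of G protein-coupled receptors, which pass a signal to G proteins when a ligand binds outside the cell. Htr2b is a serotonin receptor that couples to Gq and phospholipase C. Gpr84 is associated with medium-chain fatty acids, Hcar2 with the ketone body β-hydroxybutyrate and niacin, and Gpr35 with kynurenic acid and other acidic metabolites. Gpr183 guides immune cells along gradients of oxysterols, and S1pr1 and S1pr2 bind sphingosine 1-phosphate. Gpr65 responds to extracellular protons, and Gpr132 has been tied to lactate and oxidized fatty acids. Through such receptors microglia and macrophages read metabolites and lipids in their surroundings.

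RefSeq sequences before the transcription start were listed for 7 of the 9 genes (8 entries, build GRCm38.p6). They are shown for Htr2b, Gpr84 and Gpr183, the receptors with the highest fold changes in either medium. A set of 6 motifs was searched on both strands of the 250 bases before each start, and capitals mark the matches. For Htr2b and Gpr84 that stretch lies wholly (250 bases) or mostly (232 bases) inside the annotated gene span, and only the 30 bases around each match are given. They are on the minus strand, at chr1:86112125-86112154 and chr1:86112010-86112039 for Htr2b, at 163 and 47 bases before the start, and at chr15:103310483-103310512 for Gpr84, 63 bases before the start. The stretch of Gpr183, chr14:121965194-121965443 on the minus strand, held none of the 6 motifs and is given whole, in lower case.
Htr2b, TGANTCA: agaatagaactTGAATCAggtcatgaactg
Htr2b, CAGACA: ctctctggcaggCAGACAgctgcacaacac
Gpr84, AGGAAGT: ggaggtggggaAGGAAGTggctaaggttgg
Gpr183: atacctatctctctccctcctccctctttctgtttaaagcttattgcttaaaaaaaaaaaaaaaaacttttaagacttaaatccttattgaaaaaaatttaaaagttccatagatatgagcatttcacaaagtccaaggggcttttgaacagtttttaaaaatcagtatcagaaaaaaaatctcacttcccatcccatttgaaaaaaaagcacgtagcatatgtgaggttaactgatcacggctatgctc
The motif TGANTCA was searched for AP-1, CAGACA as a Smad element and AGGAAGT as a core of PU.1 and other ETS factors. N stands for any base, so TGANTCA is a looser pattern than the AP-1 core. The match in Htr2b is TGAATCA, and whether AP-1 binds that form was not tested. Over 32851 promoters of the same length these motifs occurred in 6.75%, 17.1% and 7.69%, with any base counted at N. The other motifs were TGACGTCA for CREB, that of NF-kB and the TATA box TATAAA, present in 1.55%, 1.41% and 12.4% of promoters. Gpr65 had CAGACA and TATAAA matches, Gpr132 AGGAAGT and CAGACA, Gpr35 TGANTCA and CAGACA in one of its entries, and S1pr2 TGACGTCA. The stretches of Gpr183, Htr2b and Gpr84 had a GC content of 32.0%, 37.6% and 46.0%, against a median of 52.4% over all promoters. These matches are letters in a window and carry no measurement of binding.

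In GCM LN18, signals of Htr2b and Gpr84 were above those of every control array, and Gpr183, the oxysterol receptor, rose by 0.61 on the log2 scale. Gpr183 was the member that passed the test among the 7 tested, at an adjusted p of 0.0269 over all genes (limma with the replicate block). Over all genes 150 passed in this comparison, 92 higher and 58 lower, which is 0.877% of those tested. Without the block 894 genes, 5.23%, and 2 of the 7 receptors passed, the second being Gpr35. At an unadjusted p under 0.05 there were 4 of the 7 in each medium, Gpr183, Gpr65, Gpr35 and Hcar2. Over all genes 2091 (12.2%) lay under that limit in GCM LN18, while GCM U87-MG had 1560 (9.12%). In GCM U87-MG none of the 7 passed after adjustment, and 8 of all genes did (0.0468%, all higher). Without the block Gpr183 passed there too, as did 259 genes (1.51%). Both comparisons use the same 3 control arrays.

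**Figure D1:**
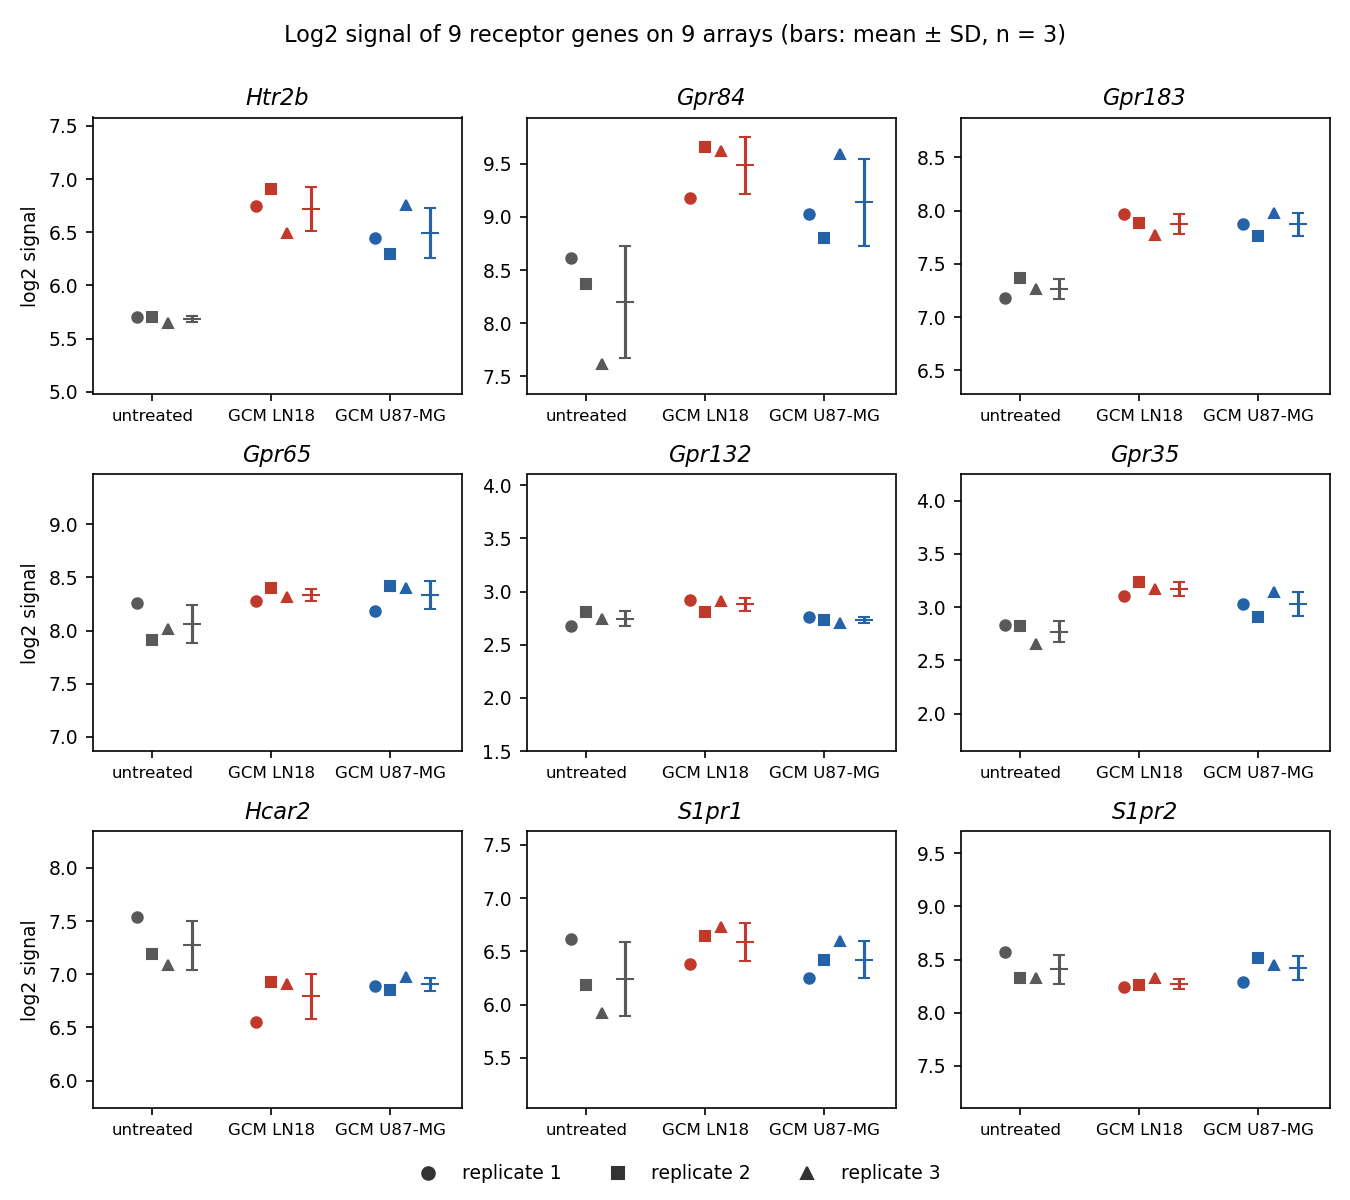
Log2 signal (vertical axes) of the 9 receptor genes on each of the 9 arrays, 3 untreated, 3 GCM LN18 and 3 GCM U87-MG, with points for arrays and bars for mean ± SD (n = 3). Htr2b, Gpr84, Gpr183 and Gpr35 lie above all control arrays in both media, and Hcar2 lies below them.

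Htr2b, the serotonin receptor gene (chr1:86097546-86116231, GRCm38.p6), had log2 signals of 5.71, 5.70 and 5.65 on control arrays 1 to 3, 6.75, 6.91 and 6.49 in GCM LN18, and 6.44, 6.29 and 6.75 in GCM U87-MG. The control arrays lay close together, and every GCM array was above them. The group means were 5.69 ± 0.03, 6.72 ± 0.21 and 6.50 ± 0.23 (SD, n = 3). The difference from control was 1.03 in GCM LN18 (2.04-fold, SE 0.14) and 0.81 after GCM U87-MG (1.75-fold). Between arrays of the same replicate number, GCM LN18 was above control by 1.04, 1.21 and 0.84, and GCM U87-MG by 0.74, 0.59 and 1.10. The 2 media overlapped, since the array of GCM U87-MG replicate 3 was above that of GCM LN18 replicate 3.

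Gpr84, a receptor of medium-chain fatty acids that immune cells express (chr15:103308233-103310670), had signals of 8.62, 8.37 and 7.61 in control. They were 9.18, 9.65 and 9.62 in GCM LN18, and 9.02, 8.80 and 9.59 in GCM U87-MG. All 6 GCM arrays were above all 3 control arrays, and the third control array was well below the other two. The means were 8.20 ± 0.52, 9.48 ± 0.26 and 9.14 ± 0.41, a difference of 1.28 in GCM LN18 (2.43-fold, SE 0.29) and of 0.94 in GCM U87-MG (1.91-fold). Within replicate numbers 1 to 3 the difference was 0.56, 1.28 and 2.00 in GCM LN18, and 0.41, 0.43 and 1.98 in GCM U87-MG. Without control replicate 3 it was 0.84 and 0.50, so that array moved both values by more than 1.5 times. Gpr84 was thus higher in every replicate of both media, by an amount that varied more than that of Htr2b.

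Gpr183 (chr14:121952331-121965193) encodes the receptor through which B cells and dendritic cells follow oxysterols. Its signals were 7.17, 7.36 and 7.26 in control, 7.97, 7.88 and 7.78 in GCM LN18 and 7.87, 7.77 and 7.98 in GCM U87-MG. The means were 7.27 ± 0.09, 7.88 ± 0.10 and 7.87 ± 0.11, and no GCM array overlapped the controls. In GCM LN18 the rise was 0.61 (1.53-fold, SE 0.09, 95% interval 0.41 to 0.81, adjusted p = 0.0269 with the block and 0.00310 without). The call was lost without control 1 or 3, any of the GCM LN18 replicates or GCM U87-MG replicate 1 (adjusted p from 0.0553 to 0.186), while the difference stayed between 0.54 and 0.68. In GCM U87-MG the difference was of like size, 0.60 (1.52-fold, 0.41 to 0.80), with an adjusted p of 0.0838 with the block and 0.00902 without. Its second probe set went from 6.14 ± 0.04 in control to 6.71 ± 0.02 in GCM LN18 and 6.78 ± 0.03 after GCM U87-MG. There the differences were 0.56 (adjusted p = 0.0127) and 0.63 (adjusted p = 0.0149), adjusted over all 28898 probe sets, so this probe set passed in both media.

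**Figure D2:**
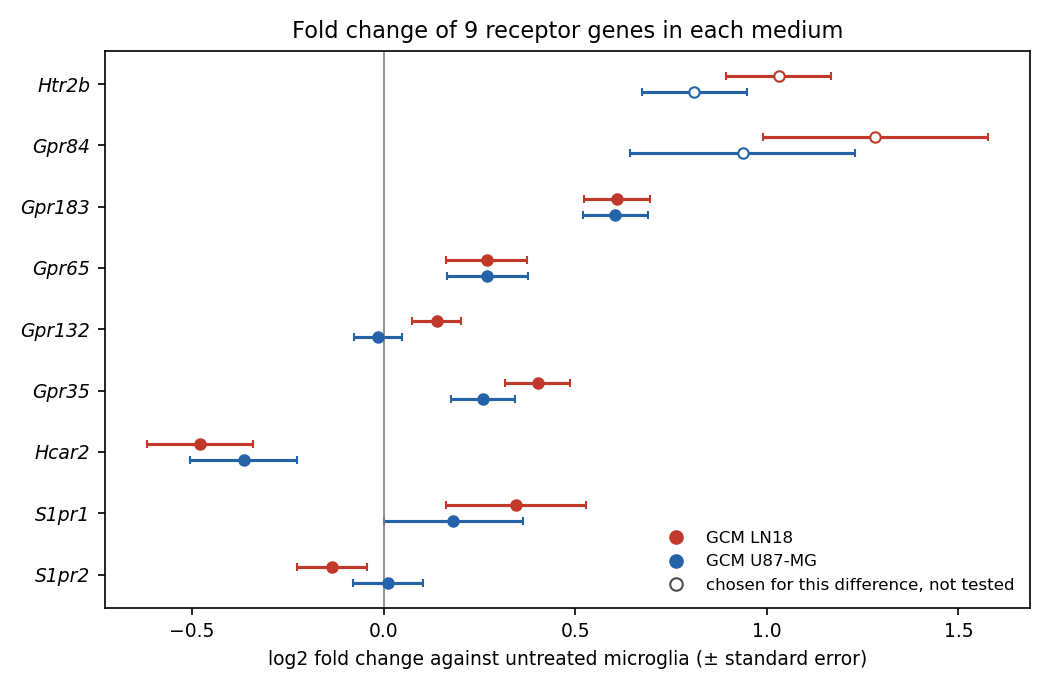
Log2 fold change against untreated microglia (horizontal axis) of the 9 receptor genes (vertical axis), in red for GCM LN18 and in blue for GCM U87-MG, with bars for ± the standard error of the limma fit. Open points mark Htr2b and Gpr84, which were chosen for this difference and not tested, and Gpr183 stands at 0.61 and 0.60, above the other tested receptors.

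Gpr35 (chr1:92948052-92986391), which responds to kynurenic acid among other acids, had dim signals, all below the working line. They were 2.83, 2.82 and 2.66 in control, 3.11, 3.24 and 3.17 in GCM LN18 and 3.03, 2.91 and 3.14 in GCM U87-MG. All GCM arrays were above all control arrays. The difference in GCM LN18 was 0.40 (1.32-fold, 0.21 to 0.59), which did not pass with the block (adjusted p = 0.0802) and passed without it (adjusted p = 0.0138). In GCM U87-MG it was 0.26 (0.07 to 0.45, adjusted p = 0.416).

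Hcar2 (chr5:123863570-123865516), the niacin and β-hydroxybutyrate receptor, was the member with lower signals in both media. It had 7.53, 7.19 and 7.09 in control, 6.55, 6.92 and 6.90 in GCM LN18 and 6.89, 6.85 and 6.98 in GCM U87-MG. No GCM array reached the lowest control array. The differences were -0.48 (0.717-fold, 95% interval -0.80 to -0.16, adjusted p = 0.193) and -0.37 (-0.69 to -0.05, adjusted p = 0.491), and neither passed. Replicate 1 had the most negative difference in both media, -0.98 and -0.65, while replicates 2 and 3 gave -0.27 and -0.18 in GCM LN18 and -0.34 and -0.11 in GCM U87-MG.

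The proton-sensing receptor gene Gpr65 (chr12:98268635-98276722) had signals of 8.26, 7.91 and 8.01 in control, 8.28, 8.40 and 8.32 in GCM LN18 and 8.19, 8.42 and 8.40 in GCM U87-MG. All GCM LN18 arrays were above control, by 0.02 in replicate 1, while GCM U87-MG overlapped the controls. The difference was 0.27 in each medium (0.03 to 0.51 in both), with an adjusted p of 0.348 and 0.498. Gpr132 (chr12:112850873-112868416), of the same receptor family, was dim, with 2.68, 2.81 and 2.74 in control, 2.92, 2.81 and 2.91 in GCM LN18 and 2.76, 2.73 and 2.70 in GCM U87-MG. Its differences were 0.14 (-0.01 to 0.28, adjusted p = 0.439) and -0.01 (-0.16 to 0.13, adjusted p = 0.970). A second Gpr132 probe set gave -0.05 and -0.12 (adjusted p = 0.836 and 0.671), so the sign in GCM LN18 differed between probe sets.

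Of the sphingosine 1-phosphate receptors, S1pr1 (chr3:115710433-115715055), which couples to Gi and supports lymphocyte egress, had 6.62, 6.18 and 5.93 in control, 6.38, 6.65 and 6.73 in GCM LN18 and 6.25, 6.42 and 6.60 in GCM U87-MG. The groups overlapped, and replicate 1 went the other way from replicates 2 and 3, with -0.23, 0.47 and 0.80 in GCM LN18. The differences were 0.35 (-0.07 to 0.76, adjusted p = 0.513) and 0.18 (-0.24 to 0.60, adjusted p = 0.819). Without control replicate 1 the value in GCM LN18 was 0.63 and passed (adjusted p = 0.0448). S1pr2 (chr9:20965952-20976793), which also couples to G12 and G13, had 8.57, 8.33 and 8.33 in control, 8.24, 8.26 and 8.32 in GCM LN18 and 8.29, 8.51 and 8.45 in GCM U87-MG. GCM LN18 was below all control arrays, with a difference of -0.13 (-0.34 to 0.07, adjusted p = 0.628), and GCM U87-MG overlapped them at 0.01 (-0.20 to 0.22, adjusted p = 0.987).

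**Figure D3:**
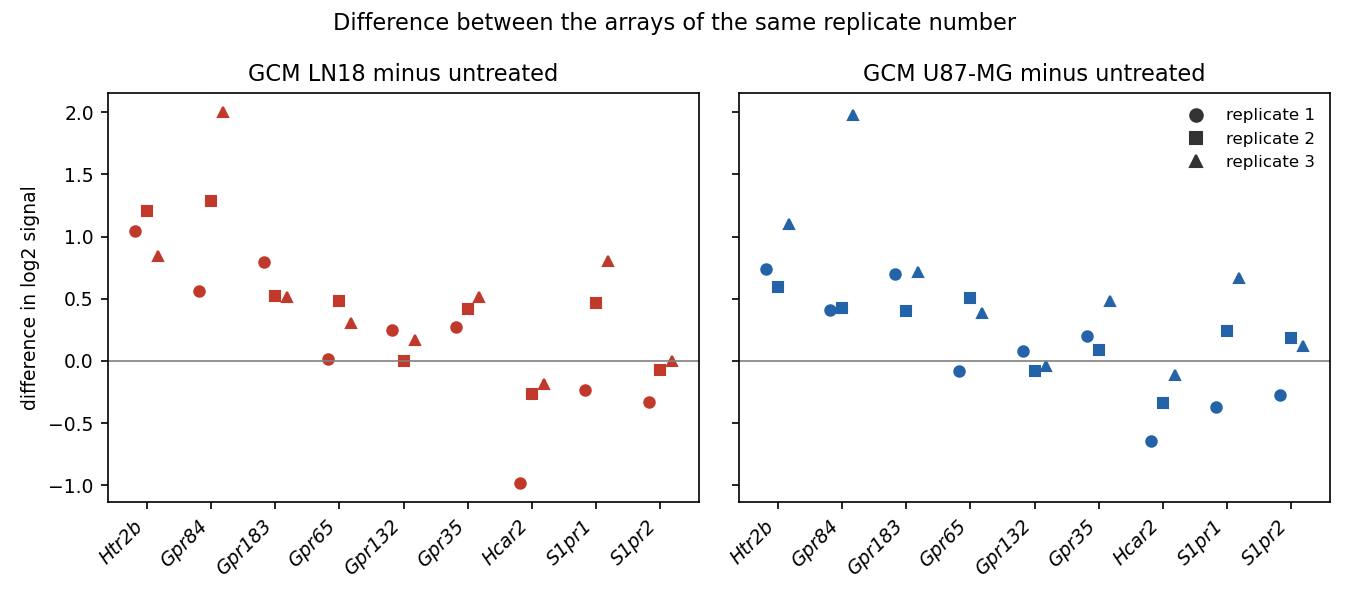
Log2 difference between a GCM array and the untreated array of the same replicate number (vertical axis) for the 9 receptor genes (horizontal axis), 1 panel per medium and 1 point per replicate number. All 3 points are above 0 in both media for Htr2b, Gpr84, Gpr183 and Gpr35 and below 0 for Hcar2, and the points of Gpr84 run from 0.56 to 2.00 in GCM LN18.

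Counted by array order, 5 of the 9 receptors had every GCM LN18 array above every control array, and 2, Hcar2 and S1pr2, had every one below. Among all genes these shares were 11.1% and 12.8%. In GCM U87-MG 4 receptors lay wholly above and Hcar2 wholly below, against 8.79% and 10.3% of all genes. Htr2b and Gpr84 are among those above in both media and were chosen from this difference in GCM LN18, so nothing is read from these counts for them.

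Between the media, the question was whether the glioma line that gave the medium mattered for these receptors. None of the 7 tested receptors passed (1, Gpr132, at an unadjusted p under 0.05), nor did any gene with the block (0%, limma, with 865 genes, 5.06%, at an unadjusted p under 0.05), and 1 gene did without it (0.00585%). The difference GCM LN18 minus GCM U87-MG was 0.22 for Htr2b and 0.35 for Gpr84. For Gpr183 it was 0.004, with a 95% interval of -0.19 to 0.20 (adjusted p = 0.994), and for Gpr65 -0.001 (-0.24 to 0.24). Gpr132 was higher in GCM LN18 on every array, by 0.15 (0.01 to 0.30, adjusted p = 0.926), and S1pr2 differed by -0.15 (-0.35 to 0.06). Differences of Gpr35, Hcar2 and S1pr1 were 0.14 (-0.05 to 0.34), -0.11 (-0.43 to 0.21) and 0.16 (-0.25 to 0.58). These intervals leave room for unequal responses, and the tests do not show that the media acted alike.

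Among serotonin receptors the other subtypes gave no call. Of 14 listed genes 13 were measured, and only Htr1b, Htr2b, Htr3a and Htr7 were above the working line. Apart from Htr2b, differences in GCM LN18 ran from -0.14 for Htr3a, the ion channel subunit, to 0.11 for Htr1d, and none passed in either medium. Without Htr2b the list median was -0.006 in GCM LN18 and -0.04 after GCM U87-MG, against a median of -0.00 over all genes. In genes of serotonin synthesis, uptake and breakdown, 7 of 9 were measured and none passed, nor was any at an unadjusted p under 0.05. Tph1, which makes serotonin outside neurons, and Slc6a4, its transporter, were both dim, with differences of 0.005 and 0.002 in GCM LN18 and 0.04 and -0.04 in GCM U87-MG. Maoa was not analysed here.

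The wider list of lipid and metabolite receptors held 31 measured genes of 41, of which 15 were above the working line. Gpr183, Cmklr1 and Lpar6 passed in GCM LN18, all higher, and none passed in GCM U87-MG. Over all genes 0.877% and 0.0468% passed. Without Gpr84, which was chosen for its difference, the list had 8 and 7 of 30 genes with an unadjusted p under 0.05 (12.2% and 9.12% over all genes) and medians of 0.07 and 0.02. The list also holds the 7 other members, which were named with earlier results known. Of these, Gpr183, Gpr65, Gpr35 and Hcar2 made up 4 of the genes under that limit in each medium. No excess over all genes is therefore read from these counts. Cmklr1, the chemerin receptor, went from 6.42 ± 0.15 in control to 7.12 ± 0.07 in GCM LN18, a rise of 0.70 (SE 0.10, adjusted p = 0.0281), and to 6.88 ± 0.14 in GCM U87-MG (0.46, adjusted p = 0.212 with the block and 0.0459 without). Lpar6, a lysophosphatidic acid receptor, went from 7.64 ± 0.07 to 8.11 ± 0.09 in GCM LN18 (0.47, SE 0.08, adjusted p = 0.0408) and 7.89 ± 0.09 after GCM U87-MG (0.26, adjusted p = 0.381). Without the block Gpr35 and Gpr34 also passed in GCM LN18, as did 5.23% of all genes. Gpr34, a lysophosphatidylserine receptor of microglia named here after its values were seen, had 5.01 ± 0.04, 5.77 ± 0.32 and 5.65 ± 0.29, a difference of 0.75 in GCM LN18 (adjusted p = 0.12 with the block and 0.0364 without).

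**Figure D4:**
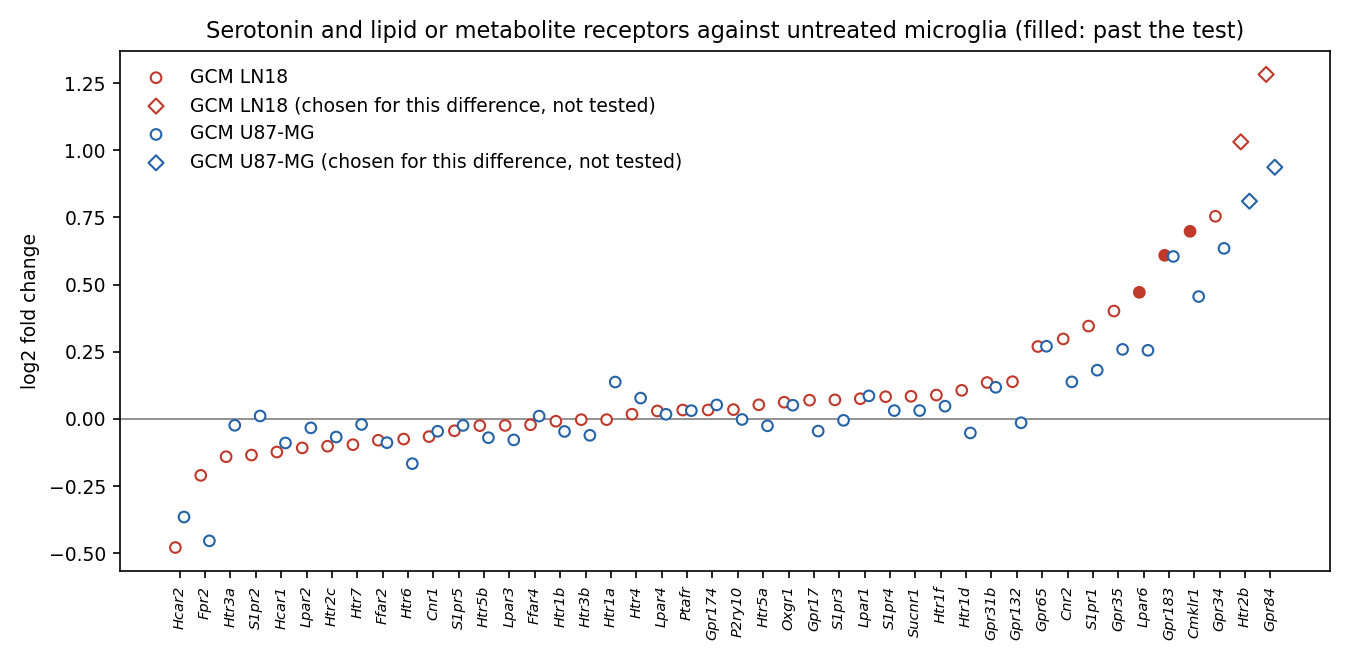
Log2 fold change against untreated microglia (vertical axis) of each measured serotonin receptor and each measured lipid or metabolite receptor in GCM LN18 and GCM U87-MG, with filled points for genes past the test and diamonds for Htr2b and Gpr84, which were not tested. The filled points are Gpr183, Cmklr1 and Lpar6 in GCM LN18.

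The genes that make the ligand of Gpr183 were measured on the same arrays. Ch25h, which makes the first oxysterol precursor from cholesterol, went from 9.37 ± 0.30 in control to 10.46 ± 0.15 in GCM LN18 and 10.41 ± 0.29 after GCM U87-MG. It rose by 1.09 in GCM LN18 (SE 0.19, adjusted p = 0.0473), and the difference of 1.04 in GCM U87-MG passed only without the block (adjusted p = 0.161 with it and 0.0286 without). Cyp7b1, the next hydroxylase, was dim, with differences of -0.01 and -0.05. Hsd3b7, which inactivates the ligand, differed by 0.09 and -0.06 (adjusted p = 0.723 and 0.852). Ch25h was the 1 gene of the 5 in this list that passed in GCM LN18, where 0.877% of all genes did. The list was made with earlier results of these data known, so nothing is read from this count.

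For the ligand of S1pr1 and S1pr2, all 14 genes of the sphingosine 1-phosphate list were measured and none passed in either medium (1 in each at an unadjusted p under 0.05, against 12.2% and 9.12% of all genes), with list medians of -0.07 and -0.02. The kinases Sphk1 and Sphk2 differed by 0.04 and -0.07 in GCM LN18 and by 0.01 and -0.12 in GCM U87-MG. The lyase Sgpl1 differed by -0.17 and -0.08, and the exporter Spns2, which was dim, by -0.01 and 0.09. Plpp2, a lipid phosphatase named here after its values were seen, passed in GCM LN18 without the block (-0.42, adjusted p = 0.103 with it and 0.0241 without).

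In lists around the ligands of Gpr35, Gpr65, Gpr132, Gpr84 and Hcar2 no gene passed with the block in either medium. Of tryptophan and kynurenine genes 11 of 12 were measured, of acid and lactate genes 9 of 10, and of fatty acid, ketone body and itaconate genes 11 of 16. At an unadjusted p under 0.05 these lists held 2, 4 and 1 genes in GCM LN18 (12.2% of all genes) and 1, 1 and 2 in GCM U87-MG (9.12% of all genes). Their medians in GCM LN18 were -0.04, 0.20 and -0.04. Acod1, which makes itaconate, differed by 0.17 and -0.07. Without the block 3 genes passed in GCM LN18 (5.23% of all genes did), and they are named here after their values were seen. They were Slc7a5, an amino acid transporter (-0.92, adjusted p = 0.0458 without the block and 0.142 with it), Slc16a3, a lactate transporter (0.50, 0.0254 and 0.0998), and Oxct1, which breaks down ketone bodies (-0.29, 0.0064 and 0.0705).

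The genes whose pattern was most like that of Htr2b or Gpr84 were ranked by Pearson's r over the 9 arrays, among 10652 genes above the working line. For Htr2b they were Extl3 (r = 0.990), Spsb1 (0.985), Inf2 (0.985), Chd7 (0.985) and Vps54 (0.984). Spsb1, an adaptor of a ubiquitin ligase, had the largest rise among them, 0.91 in GCM LN18 and 0.68 after GCM U87-MG. Chd7 had the smallest, 0.37 and 0.27. For Gpr84 they were Tmem219 (0.992), Lpcat2 (0.988), Syn3 (0.985), Cxcl16 (0.983) and Ifnar1 (0.981). Lpcat2, an enzyme of phospholipid remodelling, had the largest rise among these, 0.65 and 0.44. Syn3 had the smallest, 0.14 and 0.12, and lay near the working line (3.42 in control). Among the members, Htr2b went with Gpr183 (0.955) and Gpr84 with Gpr35 (0.977), while Hcar2 ran opposite to Gpr183 (-0.829). These values describe 9 arrays that share their groups and the removal of replicate means, and they carry no test.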

How the data were processed

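The authors deposited log2 signals, 45141 probe sets on each of 9 arrays (3 per group). R, Bioconductor and limma are named in the submitters' notes, and background correction, normalization and summary are not given in the sources used here. Controls (104 probe sets) were left out. The platform's annotation gives a single symbol for 28898 of the remaining 45037, several for 551, and 15588 are unnamed here. A current symbol was found for 28689. The brightest probe set stood for a gene, leaving 17097 genes.

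Each gene was modelled in limma 3.58.1 (R 4.3.3) over all 9 arrays, with 1 mean per group and the replicate number as a block. A call is an adjusted p under 0.05 (Benjamini-Hochberg over all genes). For every probe set the replicate numbers had equal means within 1e-06, so a fit without the block counts 6 residual degrees of freedom in place of 4. With these means removed, a check of whether same-numbered arrays deviate together has no meaning. The submitters' design text gives the replicates as coming from different cortical cultures, and whether a number marks 1 culture in all groups is not given in the sources used here. Both further probe sets of members were tested over all 28898. The fit was tested on simulated data.

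The members and the gene lists were chosen with earlier results of these data known. Named genes were the 9 members, genes of the ligands fixed by name, from each list the 2 highest and 2 lowest called genes, and the 5 genes most like Htr2b and Gpr84. Lists were serotonin receptors, lipid and metabolite receptors, oxysterol enzymes, sphingosine 1-phosphate, serotonin metabolism, kynurenine, acid and lactate, fatty acid and ketone body, G proteins, RGS proteins and arrestins, second messenger enzymes, CREB and calcium targets, and cell type markers. Alternatives were the fit without the block, eBayes with trend and robust settings, removal of dim genes, the mean of probe sets, quantile normalization, median centring, only the groups compared, and each array left out in turn.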

Additional observations from a re-analysis of the deposited data

How the results depend on the processing

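Of the values recomputed for the 9 receptors over all comparisons and alternatives, 396 kept their direction and their side of the threshold or moved by less than the spread, 20 changed sign, 6 gained and 6 lost the call, and 4 moved. For Htr2b and Gpr84 only the fold change was compared. It cannot change without the block, with trend and robust estimation, without dim genes, or when an array outside the comparison is left out. Part of the 396 was thus fixed in advance. Without the replicate block 894 genes were called in GCM LN18 (150 with it), 259 in GCM U87-MG (8) and 1 between the media (0), and 2, 1 and 0 of the 7 tested receptors. With only the groups compared, 89 and 0 genes were called in GCM LN18 and GCM U87-MG. In GCM U87-MG 21 genes were called with trend and robust estimation, 3 without dim genes, 5 with the mean of probe sets and 3 after quantile normalization, and 1 receptor, Gpr183, passed with trend and robust estimation (0.0443) and with the mean of probe sets (0.0182). Leaving out 1 array gave 3 (without GCM LN18 replicate 2) to 179 genes in GCM LN18, with 6 and 19 without GCM LN18 replicates 1 and 3, 58 without control replicate 3, and 69 and 98 without GCM U87-MG replicates 1 and 3. It gave 0 to 10 genes in GCM U87-MG (0 without GCM U87-MG replicate 1 or 3) and 0 between the media. Receptors called ranged from 0 to 1 in GCM LN18 and were 0 in GCM U87-MG. Sign changes were small values: Gpr132 in GCM LN18 was -0.0533 on its second probe set. Gpr183 between the media was -0.0333 with the mean of probe sets, -0.00195 after median centring and -0.0708 on its second probe set, and Gpr65 between the media was 0.00815 after quantile normalization. With 1 array left out, ranges that crossed 0 were -0.0662 to 0.0366 for Gpr132, -0.0555 to 0.46 for S1pr1 and -0.0622 to 0.13 for S1pr2 in GCM U87-MG, and -0.0747 to 0.0831 for Gpr183, -0.11 to 0.0622 for Gpr65 and -0.21 to 0.0685 for Hcar2 between the media. Htr2b ranged from 0.89 to 1.20 in GCM LN18 and from 0.62 to 0.96 in GCM U87-MG, and Gpr84 from 0.84 to 1.60 and from 0.50 to 1.25. The cause of these changes was not tested. Gpr132 and Gpr35 are dim, and 3 arrays per group limit every value.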

Other observations

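Genes that carry the signal of such receptors into the cell gave no call with the replicate block in either medium. All 17 listed G protein subunits, 13 of 14 RGS proteins, arrestins and receptor kinases, 23 of 24 second messenger enzymes and 11 of 12 CREB and calcium target genes were measured. At an unadjusted p under 0.05 these lists held 4, 3, 8 and 3 genes in GCM LN18 and 2, 1, 5 and 3 in GCM U87-MG, where 12.2% and 9.12% of all genes lay under it. Without the block the lists held 1, 0, 2 and 1 genes higher and 1, 1, 2 and 1 lower in GCM LN18. Over all genes 5.23% passed there, in a fit that counts 6 residual degrees of freedom in place of 4. These list genes are named below after their values were seen. Arrb1, an arrestin that ends receptor signalling, went from 6.95 ± 0.09 in control to 6.59 ± 0.03 in GCM LN18 and 6.65 ± 0.07 after GCM U87-MG, differences of -0.36 (adjusted p = 0.0626 with the block and 0.0082 without, limma) and -0.30 (0.231 and 0.0397). Fos, an immediate early gene, went from 9.90 ± 0.20 to 10.43 ± 0.10 in GCM LN18 (0.53, adjusted p = 0.0825 and 0.0185) and 10.26 ± 0.10 after GCM U87-MG. Per1, another CREB target, differed by -0.22 (0.151 and 0.0203). Plcb3, a phospholipase C downstream of Gq, differed by 0.28 in GCM LN18 (0.0825 and 0.0091) and by 0.23 in GCM U87-MG (0.313 and 0.0461). Of the phosphodiesterases that break down cyclic nucleotides, Pde3b differed by 0.39, Pde4b by -0.56 and Pde4d by -0.19 in GCM LN18. Gnao1, a dim G protein α subunit, and Gng2 differed by 0.17 and -0.17.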
